A study of Mus musculus with 21 samples.

Results

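Granulosa cells were taken from the ovaries of aged mice after transplantation of human mesenchymal stem cells from umbilical cord (UC-MSCs) that had been sorted by their surface level of LRP1, and the LRP1high and LRP1low subpopulations were compared. The comparison was chosen by the titles of the libraries and holds 5 of the 21 libraries of the series: 3 Aged + LRP1high and 2 Aged + LRP1low, each labelled a biological replicate. All 5 came from 18-month-old ICR females, which received the cells under the ovarian capsule and were followed for 3 weeks, and differed in the subpopulation given: the 25% of LRP1-positive cells with the highest or the lowest staining. The 4 other granulosa cell libraries were 1 Young (mice of 6 to 8 weeks), 2 Aged and 1 Aged + Unsorted. The last was of aged mice given the unsorted cells. All 4 entered the model, but only the Aged pair helped to estimate the spread between libraries. A group of 1 library has no spread of its own. How many mice entered a library is not given in the sources used here. The labels do not say whether the Aged mice had a sham operation. The cells studied are those that hyaluronidase frees from cumulus-oocyte complexes after the follicles are ruptured, and the follicle stage is not labelled.

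Granulosa cells are the somatic cells of the follicle that surround the oocyte. Under follicle stimulating hormone they divide, make inhibin and convert androgens to oestradiol with the aromatase Cyp19a1. After the ovulatory surge they luteinise, and the steroidogenic enzymes Star, Cyp11a1 and Hsd3b1, fed with cholesterol, then make progesterone. LRP1 itself is a large endocytic receptor of the low-density lipoprotein (LDL) receptor family that takes up lipoproteins, proteases and their inhibitors. The comparison asks whether the LRP1 level of the donor cells made a difference to the granulosa cells of the host.

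No gene passed the test between Aged + LRP1high and Aged + LRP1low granulosa cells after adjustment for the number of genes tested. For each gene, FPKM (fragments scaled to gene length and to all fragments of the library) was compared on the log2(FPKM + 1) scale with limma. The 13002 genes tested had a mean FPKM of at least 1 over all 9 granulosa cell libraries, not over the 5 compared. A call needed a fold change over 1.5 together with a Benjamini-Hochberg adjusted p-value under 0.05. The call was made for 0 genes higher (0% of those tested) and 0 genes lower (0%) in Aged + LRP1high, and the smallest adjusted p-value was 0.629. With the same fold and an unadjusted limma p-value under 0.05, 538 genes (4.14%) were higher and 131 (1.01%) lower. This split depended on the scaling: it was 285 and 431 after quantile normalization and 242 and 334 with median-of-ratios size factors. Fold changes on this scale understate the change of genes near 0. With 3 against 2 libraries, the exact two-sided permutation test used below for summed levels cannot go below p = 0.2.

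How alike the libraries were was described by rank correlations. Across the tested genes, which are not independent replicates, Spearman's rho was 0.220, 0.192 and 0.306 between Aged + LRP1high libraries and 0.230 between the Aged + LRP1low libraries, and it ranged from 0.117 to 0.346 between the groups. The difference of all genes tested had a median of 0.45 on the log2 scale, but it depended on the level: for the 1047 protein-coding genes whose FPKM averaged 10 or more over the 5 libraries it was -1.21. List medians are to be set beside the first value, and those of abundant genes beside the second as well.

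In each of the 5 compared libraries, most of the signal fell on 10 gene models that resemble each other. Gm10800, Gm10801, Gm10717, Gm10718, Gm10719, Gm10721, Gm10722, Gm11168, Gm17535 and Gm21738 took 82.5%, 96.4% and 68.5% of the TPM (a transcript abundance with the same total in every library) in Aged + LRP1high replicates 1, 2 and 3. In Aged + LRP1low replicates 1 and 2 they took 66.8% and 97.0%. Nuclear protein-coding genes outside this family had 7.47%, 1.14% and 22.2% of the TPM in Aged + LRP1high and 22.9% and 1.47% in Aged + LRP1low. Replicate 2 of both groups thus stood apart from the other libraries, and the 2 libraries numbered 2 resembled each other in this respect. Depth, computed from coverage and FPKM, was 0.567, 1.28 and 1.14 aligned gigabases in Aged + LRP1high and 0.335 and 0.903 in Aged + LRP1low. For a gene of 1 kilobase, a single 150-base read was worth 0.264, 0.117 and 0.132 FPKM in Aged + LRP1high, and 0.448 and 0.166 FPKM in Aged + LRP1low. In Aged + LRP1low replicate 1, the shallowest library, 5338 of the 13002 genes were listed at 0, against 914 to 2653 in the other 4.

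**Figure D1:**
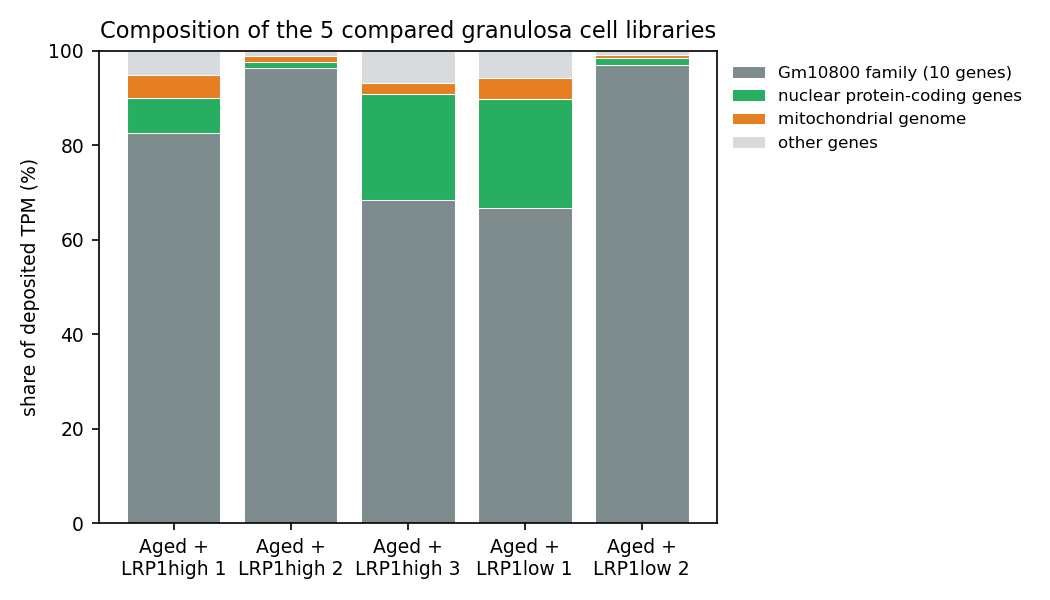
Share of the deposited TPM (%) in the 5 compared libraries, stacked by gene class. The Gm10800 family takes between 66.8% and 97.0%, and nuclear protein-coding genes between 1.14% and 22.9%, with the lowest share in replicate 2 of both groups.

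Gm10800 alone had an FPKM of 437534 to 944446 in these libraries. Its sequence is shown because this gene model held most of the summed FPKM of each of the 5 libraries. The gene model is annotated as protein-coding on chromosome 2 of GRCm38, on the minus strand from 98666547 to 98667301, with 5 exons and a transcript of 660 bases. The 240 bases below are the first 240 of its exon 4, at chr2:98666801-98667040 on the minus strand, all of them annotated as coding. They were read from the GENCODE transcript and are written 5′ to 3′. Capitals mark the 193 bases that lie in a word of 20 bases also present, on either strand, in at least 5 of the 9 other genes of the family:
Gm10800 exon 4: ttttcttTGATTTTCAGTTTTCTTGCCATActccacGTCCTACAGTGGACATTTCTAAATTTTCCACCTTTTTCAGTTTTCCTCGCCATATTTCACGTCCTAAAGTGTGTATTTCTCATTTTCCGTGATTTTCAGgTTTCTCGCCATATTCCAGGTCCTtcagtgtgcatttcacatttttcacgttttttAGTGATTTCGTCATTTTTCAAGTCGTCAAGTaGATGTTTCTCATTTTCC
Of the 641 words of 20 bases in Gm10800, between 31.2% (Gm17535) and 49.6% (Gm10801) also occurred in another member of the family. Reads from one member can therefore be counted to another, and the split of the signal among them is uncertain. The family did not separate the groups: Gm10800 had a log2 difference of 0.02 ± 0.52 (SE). Because FPKM is scaled to all fragments, a library with more of this family has lower FPKM of all other genes, so the comparison was repeated on TPM rescaled without the 10 genes. On that scale, 44848 genes had a mean of at least 1 over the 9 granulosa cell libraries. Of these, limma called 0 genes higher (0%) and 0 lower (0%), with a smallest adjusted p-value of 0.800. At an unadjusted p-value under 0.05, 2219 genes (4.95%) were higher and 500 (1.11%) lower. The median difference of all genes was 0.75 on this scale, further from 0 than on FPKM.

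Genes whose libraries did not overlap were more often higher in Aged + LRP1high. All 3 Aged + LRP1high values lay above both Aged + LRP1low values in 2815 genes (21.7% of those tested), and below both in 297 (2.28%). On TPM without the family these counts were 5096 (11.4%) and 1255 (2.8%). Of the 2815, 1879 were listed at 0 in Aged + LRP1low replicate 1 and 709 in both Aged + LRP1low libraries. The lowest Aged + LRP1high value of these genes had a median FPKM of 0.631. Only 3 of them had an FPKM of at least 10 in each Aged + LRP1high library, against 17 of the 297 with at least 10 in each Aged + LRP1low library. Among the 1047 protein-coding genes whose FPKM averaged 10 or more over the 5 libraries, the counts were nearly even, 38 (3.63%) higher and 42 (4.01%) lower, and the median difference was -1.21. Without both libraries numbered 2, 6406 genes (49.3%) did not overlap and were higher, and 2959 (22.8%) were lower, with 1 Aged + LRP1low library left; limma then called 0 genes, and without adjustment 1382 were higher and 1526 lower.

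The following genes were named by a rule: in each direction, the 10 protein-coding genes whose FPKM averaged 10 or more and that had the smallest unadjusted p-value whose groups did not overlap. None passed the adjustment, and each of the 20 had an adjusted limma p-value of 0.629. Plau, at chr14:20836660-20843385 on the plus strand, encodes urokinase, a secreted protease that activates plasminogen and whose complex with its inhibitor is cleared by LRP1. Its FPKM was 278, 4.51 and 2824 in Aged + LRP1high replicates 1, 2 and 3, and it was listed at 0 in both Aged + LRP1low libraries. The 3 Aged + LRP1high libraries thus differed widely among themselves, with replicate 2 the lowest. The log2 difference was 7.35 ± 2.45 (SE). Because no count was used, no fold is given against a group listed at 0. In the other granulosa cell libraries, Plau reached 583 in Young, 1.02 in Aged + Unsorted, and 0.167 and 0 in the Aged pair.

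Hyou1, at chr9:44379490-44392369 on the plus strand, encodes a chaperone of the endoplasmic reticulum that is induced by unfolded proteins and low oxygen. Its FPKM was 242, 5.83 and 3085 in Aged + LRP1high, and 1.21 and 0.330 in Aged + LRP1low. The log2 difference was 6.65 ± 2.39. As for Plau, replicate 3 held most of the signal, the groups did not overlap, and Young was high, at 1400. Of the other 8 genes named as higher, 5 had at most 1.24 in Aged + LRP1high replicate 2. Ephx2, the soluble epoxide hydrolase, had 52.7, 1.01 and 11.2 against 0 and 0. Snrpe, a core protein of the splicing particles, had 17.9, 0.683 and 88.1 against 0 and 0. Bola1, a mitochondrial protein that acts with glutaredoxin, had 10.5, 1.24 and 101 against 0 and 0. For Rnf214, Rpf1, Ubap2l, Lsm12 and Tmem161b, log2 differences were 2.91 to 4.20.

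Among the genes named as lower in Aged + LRP1high, Nap1l1 ranked first. This gene, a histone chaperone, is at chr10:111473223-111498150 on the plus strand. Its FPKM was 0.957, 0.884 and 0.577 in Aged + LRP1high, and 57.9 and 23.5 in Aged + LRP1low. The log2 difference was -4.40 ± 0.49. It was 193 in Young and 75.1 in Aged + Unsorted, and 0.845 and 1.62 in Aged, where the Gm10800 family took 93.4% and 95.4% of the TPM. Hspe1, the co-chaperonin of the mitochondrial matrix, had 0.549, 0.253 and 2.19 against 85.6 and 33.7, a log2 difference of -4.90 ± 0.60. Reads of this gene can be shared with copies of similar sequence, so its values are uncertain. The chaperonin Hspd1, with which it acts, had 0.576, 0.132 and 6.16 against 34.9 and 1.75, and these groups overlapped.

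Uqcc2, an assembly factor of respiratory complex III, had 0, 0.466 and 1.84 against 224 and 11.2. Bhlhe41, a repressor of the circadian clock, had 1.13, 0.543 and 1.07 against 84.1 and 4.34. In both genes the higher Aged + LRP1low value was that of replicate 1. Snrnp27, a splicing protein, had 10.1, 2.99 and 10.9 against 319 and 47.5. Pigp, of the pathway that makes glycosylphosphatidylinositol anchors, had 2.27, 0.131 and 13.1 against 645 and 36.9. The uncharacterised 0610009B22Rik had 0, 0 and 2.40 against 60.2 and 30.6.

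The remaining pair of genes named as lower is known from oocytes. Sall4, a transcription factor of germ cells, had 9.53, 0.730 and 0.589 against 36.1 and 37.2. Fbxw28, an F-box protein, had 3.77, 0.722 and 1.25 against 44.1 and 5.74. In Aged + Unsorted, the library with the highest oocyte marker signal, they reached 115 and 978. Of the 10 oocyte markers, 4 had a difference above 0 and 6 below. The maternal factor Dppa3 (5.28, 1.24 and 1.81 against 11.0 and 13.1) and the zona protein Zp3 (0, 0.251 and 0.404 against 1.82 and 1.12) did not overlap and were higher in Aged + LRP1low, 2 of 10 against 2.28% of all genes. Nlrp5, a maternal factor of the egg, did not overlap and was on the other side, with 1.18, 0.893 and 0.847 against 0 and 0.611. The sum of the 10 was an FPKM of 38.0, 5.46 and 8.19 against 19.5 and 41.9, which overlapped (exact two-sided permutation p = 0.4). The part of oocyte RNA in these genes was not tested.

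The gene with the smallest p-value of all was named after its values were seen. Rpl22l1, a paralog of a ribosomal protein, had an FPKM of 0.340, 0.420 and 0.268 in Aged + LRP1high, and 14.5 and 26.9 in Aged + LRP1low. The log2 difference was -3.95 ± 0.40. It was below the mean of 10 that the rule asked for.

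Leaving out 1 library decided whether genes were called. Without Aged + LRP1low replicate 2, limma called 489 genes lower (3.76%) and 0 higher (0%), with a smallest adjusted p-value of 0.019; this fit assumes that the lone Aged + LRP1low library varies like the other groups. Nap1l1, Hspe1, Snrnp27, Uqcc2 and Bhlhe41 were among the genes called, with log2 differences of -5.03, -5.56, -5.31, -7.12 and -5.49. Without each of the other 4 libraries in turn, no gene was called.

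**Figure D2:**
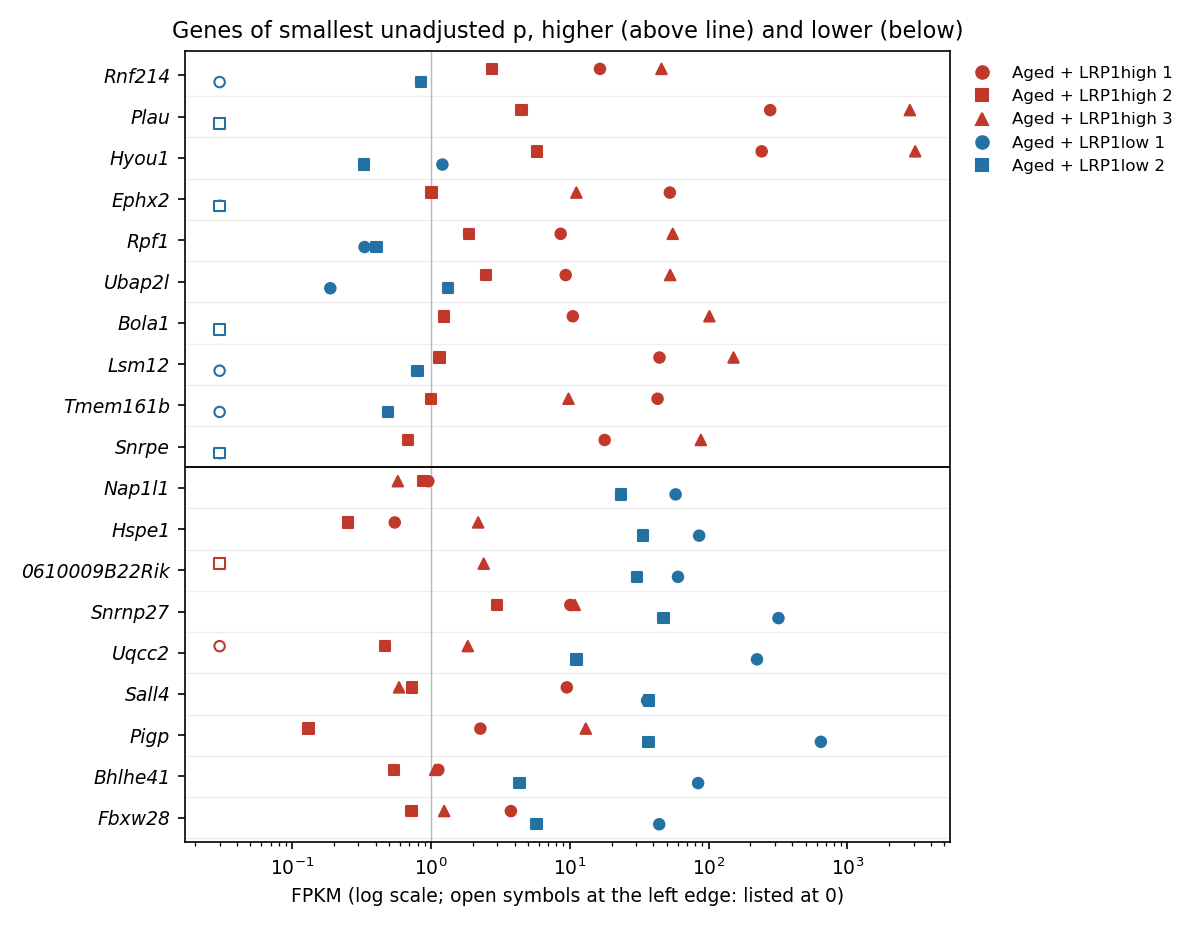
FPKM (log axis) of 19 of the 20 genes named by the rule in the 3 Aged + LRP1high (red) and 2 Aged + LRP1low (blue) libraries, 1 symbol a library, with open symbols for genes listed at 0. Red and blue symbols do not overlap in any row, as the rule requires, and among the 10 genes above the line replicate 2 (red square) is the lowest Aged + LRP1high library.

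Genes of granulosa cell identity and of the response to follicle stimulating hormone were used to check the labelled cell type. Of 25 listed genes, 23 were tested and 0 were called, 20 had a difference above 0 and 3 below, and the median difference was 1.17, against 0.45 for all genes. The groups did not overlap in 5 genes (21.7% of the list), higher in Aged + LRP1high, against 21.7% of all genes tested. The summed FPKM of the list was 297, 12.5 and 1890 in Aged + LRP1high, and 883 and 20.3 in Aged + LRP1low (exact two-sided permutation p = 1.0). On FPKM, the libraries numbered 2 were thus the lowest of each group. In comparison, the sum was 5541 in Young, 187 in Aged + Unsorted, and 4.62 and 5.68 in the Aged pair. On TPM without the family, the sums were 1905, 320 and 8371 in Aged + LRP1high, and 3557 and 632 in Aged + LRP1low. The libraries numbered 2 were again the lowest of each group. On that scale Aged + LRP1low replicate 2 lay above Aged + Unsorted, at 418, whereas on FPKM it lay below.

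Individual granulosa genes were carried by single libraries. Apart from 21 genes fixed by name, members of the lists are given here and below as examples that were chosen after their values were seen. Inha, the alpha subunit of inhibin, had an FPKM of 0.555, 0.390 and 263 in Aged + LRP1high, and 26.0 and 0 in Aged + LRP1low. Aged + LRP1high replicate 3 stood far above the rest, and the log2 difference of 0.67 ± 2.65 turned to -1.82 without it. Fshr, the receptor of follicle stimulating hormone, had 1.48, 0.0827 and 27.2 against 0 and 0.266. Cyp19a1, the aromatase, had 0.294, 0.468 and 10.2 against 0.302 and 0.168. Both again were highest in Aged + LRP1high replicate 3. Foxl2, a transcription factor that keeps granulosa cell identity, had 4.43, 0.912 and 25.8 against 0 and 2.52. Amh, made by growing follicles, was at 0, 0 and 0.402 against 1.28 and 0. The log2 differences of Fshr, Cyp19a1 and Foxl2 were 1.91 ± 1.35, 1.17 ± 0.99 and 1.80 ± 1.17, and none passed the test.

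Genes of steroid synthesis and of the corpus luteum had a median below 0, again without a call. Of 18 listed, 16 were tested and 0 called, and 5 had a difference above 0 and 11 below. On TPM without the family the median was -1.79, over 18 genes. On FPKM it was -1.80, against 0.45 for all genes and -1.21 for abundant protein-coding genes. Without Aged + LRP1low replicate 1 the median was 0.97, so the direction rested on that library. The summed FPKM was 2212, 13.8 and 212 in Aged + LRP1high, and 8318 and 95.9 in Aged + LRP1low, and overlapped (exact two-sided permutation p = 0.6). Cyp11a1, the enzyme that cuts the side chain of cholesterol, had 1341, 0.683 and 11.1 against 3503 and 42.2. It was the most abundant nuclear protein-coding transcript of Aged + LRP1high replicate 1 and the second of Aged + LRP1low replicate 1, and was near 0 in Aged + LRP1high replicate 2. Its log2 difference was -3.69 ± 3.15. Akr1c18, which breaks down progesterone and was named after its values were seen, had 386, 5.78 and 2.77 against 890 and 21.4. Both genes thus split the Aged + LRP1high group, with replicate 1 high and replicates 2 and 3 low.

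Star, which carries cholesterol into mitochondria, had 4.95, 0.340 and 20.4 against 176 and 2.98. Hsd3b1, which makes progesterone from pregnenolone, had 27.4, 0 and 50.6 against 861 and 4.97. Lhcgr, the receptor of luteinising hormone, had 5.80, 0.333 and 1.82 against 78.8 and 0.262. Aged + LRP1low replicate 1 was the highest library for all 3, and without it their log2 differences changed sign, from -2.26, -2.66 and -1.77 to 0.48, 0.93 and 1.22. On FPKM the groups did not overlap in 1 of the 16 tested members (6.25%, against 2.28% of all genes), which was lower in Aged + LRP1high. This was Hsd17b7, which acts in oestradiol and in cholesterol synthesis. It had 1.77, 0.242 and 0.737 against 378 and 2.60, a log2 difference of -4.35. On TPM without the family, 2 of 18 did not overlap and were lower, Star among them, against 2.8% of all genes.

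The enzymes that make cholesterol, and its uptake, had a median difference of -1.10 over 22 tested of 26 listed genes, 15 of them below 0 and 7 above. Without Aged + LRP1low replicate 1 the median was 0.83. With an unadjusted p-value under 0.05, Hmgcs1, which makes the precursor of mevalonate, had 1.58, 0.244 and 6.84 against 383 and 6.70, and its groups overlapped. Lss, which closes the sterol rings, had 3.03, 2.23 and 8.14 against 0 and 0.230, and its groups did not overlap. The adjusted p-value was 0.629 for both. Insig1, a sterol sensor that was named after its values were seen, was among the 10 most abundant nuclear protein-coding transcripts in 4 of the 5 libraries, with 342, 26.6 and 6712 against 4036 and 199. It made up most of the summed FPKM of the cholesterol list in each of the 5 libraries, for example 6712 of 7097 in Aged + LRP1high replicate 3. Without both libraries numbered 2, the medians were -3.72 for the steroid list and -2.81 for the cholesterol list, against 0.67 for all genes, with Aged + LRP1low replicate 1 as the only library of its group.

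**Figure D3:**
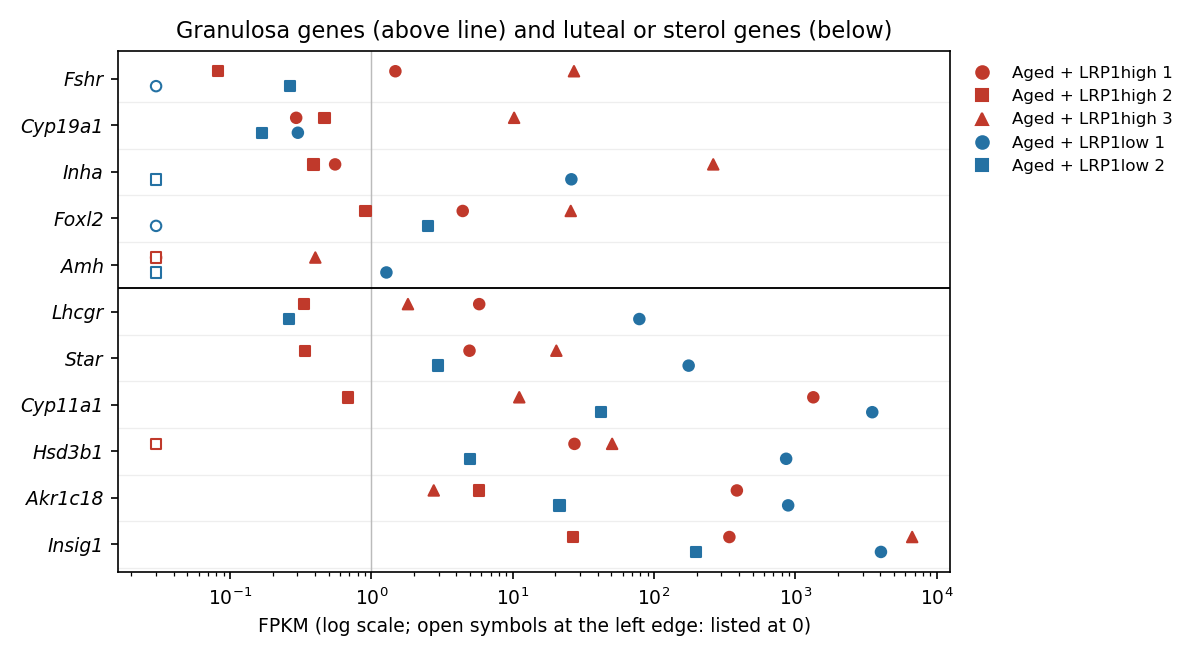
FPKM (log axis) of 5 granulosa cell genes, above the line, and 6 luteal or sterol genes, below it, in the 5 libraries, with open symbols for genes listed at 0, where symbols can coincide. Aged + LRP1high replicate 3 (red triangle) is highest for Fshr, Cyp19a1, Inha and Foxl2, and Aged + LRP1low replicate 1 (blue circle) for Lhcgr, Star, Cyp11a1, Hsd3b1 and Akr1c18.

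Most genes of cumulus expansion had a mean FPKM under 1. Of 19, 4 passed the filter, and the summed FPKM was 40.3, 6.33 and 80.6 against 104 and 31.8. Rgs2, a regulator of G protein signalling, made up most of it in Aged + LRP1high replicate 3 and both Aged + LRP1low libraries, with 7.48, 0.135 and 63.9 against 76.9 and 23.6. Has2, which makes hyaluronan, was at most 0.246, Ptgs2, which makes prostaglandins, at most 1.90, and Tnfaip6 and Ptx3, which stabilise the cumulus matrix, at most 0.634 and 0.893 in any of the 5 libraries. Ptgs2 did not overlap, with 0.514, 0.0906 and 0.187 against 1.90 and 1.52, but was below the filter and not tested on FPKM. On TPM without the family the sums did not overlap, 258, 163 and 357 against 419 and 990. The exact two-sided permutation p was 0.2, the smallest it can take here, and 0.943 after adjustment over the 11 marker lists.

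The respiratory chain was of interest because the study asked about the mitochondria of granulosa cells. Of 121 nuclear genes for its subunits and assembly factors, 108 were tested, 0 were called, and as many had a difference above 0 as below, 53 each, with a median of 0.00. With an unadjusted p-value under 0.05, 4 were higher and 7 lower, or 3.70% and 6.48% of those tested, against 4.14% and 1.01% of all genes. The groups did not overlap in 16 genes that were higher (14.8%) and 9 that were lower (8.33%), against 21.7% and 2.28% of all genes. The 4 higher genes with an unadjusted p-value under 0.05 were Ndufa7, Ndufs3 and Ndufv3 of complex I and Uqcrc1 of complex III. Uqcrc1 had 8.38, 1.67 and 7.06 against 0 and 0.0457, and Ndufs3 had 3.71, 1.91 and 1.61 against 0 and 0.334. The 7 lower genes at that p-value were Ndufb9, Ndufs8 and the assembly factor Ndufaf2 of complex I, Uqcc2, Cox4i1, Cox6c2 and the ATP synthase subunit Atp5a1. Ndufaf2 had 0, 0 and 0.162 against 16.9 and 4.17, and Cox6c2, which resembles Cox6c so that their reads may be split, had 0, 0.780 and 0 against 74.5 and 6.58. Genes of one complex thus lay on both sides. The summed FPKM was 922, 65.4 and 3268 against 10285 and 230, with Aged + LRP1low replicate 1 the highest.

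All 13 messenger RNAs of the mitochondrial genome were listed above 0 in all 5 libraries. Their summed FPKM was 19435, 4821 and 9799 in Aged + LRP1high, and 16597 and 2644 in Aged + LRP1low. Of the 13, 12 had a difference above 0 and 1, mt-Co2, was at -0.04 ± 1.58. The median was 0.69 on FPKM and 0.38 on TPM without the family, above the 0.45 of all genes on the first scale and below their 0.75 on the second. Without both libraries numbered 2 it was -0.04, without Aged + LRP1low replicate 1 it was 1.80 and without Aged + LRP1low replicate 2 it was -0.44. The mitochondrial genome, its RNA genes included, made up 27.5%, 37.9% and 7.80% of the TPM outside the family in Aged + LRP1high, and 13.3% and 20.1% in Aged + LRP1low.

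Mitochondrial dynamics, protein import and the transport of NAD (nicotinamide adenine dinucleotide) gave no call either. Of 23 genes of dynamics and import, 21 were tested, 14 with a difference above 0 and 7 below, and the median was 0.34. The groups did not overlap in 7 that were higher (33.3%) and 0 that were lower (0%), against 21.7% and 2.28% of all genes. On TPM without the family, such genes were 7 and 2 of 23, against 11.4% and 2.8% of all genes. In Aged + LRP1low replicate 1, 10 of the 23 were listed at 0. Mff, which recruits the fission machinery, had 3.09, 0.461 and 1.10 against 7.78 and 0.647. Mfn1, of outer membrane fusion, had 3.22, 1.06 and 0.723 against 8.03 and 0.717. Mfn2, its relative, had 0.464, 0.482 and 0.449 and was listed at 0 in both Aged + LRP1low libraries, where 1 read on a gene of 1 kilobase is worth 0.448 and 0.166. Of the import receptors and channels, Tomm20 had 4.65, 0.404 and 0.341 against 17.1 and 0.291, Timm17a 2.30, 0.235 and 3.83 against 11.4 and 1.13, and Timm17b 2.32, 0.425 and 0.971 against 0 and 0.127. Mff, Mfn1, Tomm20 and Timm17a were thus highest in Aged + LRP1low replicate 1, and the sign of their difference changed without it, to 0.50, 0.52, 0.77 and 0.34. Slc25a51, the NAD carrier of the inner membrane, had 5.10, 0.459 and 1.23 against 0.990 and 1.78, and its log2 difference of 0.20 ± 0.66 was -0.25 on TPM without the family. Over 15 tested genes of NAD metabolism the median was 0.20.

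Host genes of the LDL receptor family were examined because the donor cells had been sorted by the human protein. Mouse Lrp1 had an FPKM of 2.96, 0.589 and 1.22 in Aged + LRP1high, and 2.31 and 0.0574 in Aged + LRP1low. The groups overlapped, and the log2 difference was 0.36 ± 0.65 (95% confidence interval -1.24 to 1.96). Lrp10 (1.17, 0.319 and 2.90 against 0 and 0), Lrp12, Sorl1 and Vldlr did not overlap and were higher in Aged + LRP1high, 4 of 11 tested (36.4%, against 21.7% of all genes). On TPM without the Gm10800 family, such genes were 2 of 15, against 11.4% of all genes. The median of the family was 0.56, close to that of all genes, and 6 of its 15 genes were listed at 0 in Aged + LRP1low replicate 1.

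Extracellular matrix genes were examined in 4 lists, with 0 called. The median difference was 0.44 over 18 tested of 44 collagens, 0.69 over 17 of 42 laminins and integrins, 0.36 over 17 of 29 glycoproteins and proteoglycans and 0.81 over 13 of 50 proteases and inhibitors. The groups did not overlap, with Aged + LRP1high higher, in 33.3% of the tested collagens and 35.3% of the laminins and integrins. The share was 0% of the glycoproteins and proteoglycans and 53.8% of the proteases and inhibitors, against 21.7% of all genes. On TPM without the family, such genes were 7 of 44, 5 of 42, 2 of 29 and 9 of 49 in the same order, against 11.4% of all genes. In Aged + LRP1low replicate 1, 18 of 44, 14 of 42, 10 of 29 and 24 of 50 genes were listed at 0. Apart from Plau, an unadjusted p-value under 0.05 was reached by Itgav, the integrin alpha V chain (8.61, 1.43 and 5.34 against 0.410 and 0.424), and Mmp23, a membrane metalloprotease (3.83, 0.415 and 7.87 against 0 and 0). With Plau, these made up 15.4% of the tested proteases and inhibitors and 5.88% of the laminins and integrins, against 4.14% of all genes. Matrix genes of stroma were high in single libraries. Col1a2 reached 41.9 in Aged + LRP1high replicate 1 and was between 0.996 and 3.69 in the other 4. Mgp and Ecm1 reached 237 and 372 in Aged + LRP1low replicate 1, and were at most 0.195 and 2.11 in the other 4.

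Cytosolic ribosomal proteins had a median difference of -1.08 over 81 tested of 85 genes, 67 below 0 and 14 above, and 0 were called. That median was close to the -1.21 of abundant protein-coding genes, as was the -1.10 of the cholesterol list. The summed FPKM of the ribosomal proteins was 1251, 86.4 and 10103 against 21141 and 324, and the libraries numbered 2 were the lowest in both groups. The groups did not overlap in 4 tested genes that were lower (4.94%) and 2 that were higher (2.47%), against 2.28% and 21.7% of all genes. On TPM without the family, such genes were 10 and 4 of 84, against 2.8% and 11.4% of all genes. Among the lower genes, Rpl10a had 7.55, 0.490 and 9.85 against 82.0 and 11.4. Rplp0, of the ribosomal stalk, and Rps10 lay on the other side, Rplp0 with 6.59, 1.05 and 6.69 against 0 and 0.659. Many of these genes have processed pseudogenes with which reads can be shared, so single values are uncertain. Without both libraries numbered 2 the median was -2.78, and without Aged + LRP1low replicate 1 it was 1.45.

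Of the stress and growth lists, heat shock and unfolded protein genes had a median of -0.32 over 21 tested genes, which was 0.85 without Aged + LRP1low replicate 1, with Hyou1 and Hspe1 at opposite ends. Antioxidant enzymes had a median of -0.40 over 23 tested genes on FPKM and of 0.58 over 27 on TPM without the family. Their direction thus differed between the scales, whose sets of tested genes also differed. Without Aged + LRP1low replicate 1 their median on FPKM was 0.95. Within that list, Prdx4, a peroxiredoxin of the endoplasmic reticulum, had 1.75, 0.779 and 1.39 against 24.6 and 7.81 (log2 difference -2.73 ± 0.55). Txn2, the thioredoxin of mitochondria, had 3.41, 1.41 and 2.08 against 0 and 0.234 (1.53 ± 0.40). DNA damage and cell cycle genes had medians of 0.63 and 0.73, and 13 of 31 and 13 of 29 tested genes (41.9% and 44.8%, against 21.7% of all genes) did not overlap and were higher, at low levels: Mcm7, of the replicative helicase, had 5.44, 1.77 and 1.07 against 0.0656 and 0.336. On TPM without the family, the non-overlapping higher genes were 6 of 35 and 4 of 31, against 11.4% of all genes. Of the DNA damage genes 16 of 35, and of the cell cycle genes 17 of 31, were listed at 0 in Aged + LRP1low replicate 1. The median of all genes was 0.45, and the part of this library's depth in these counts was not tested.

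**Figure D4:**
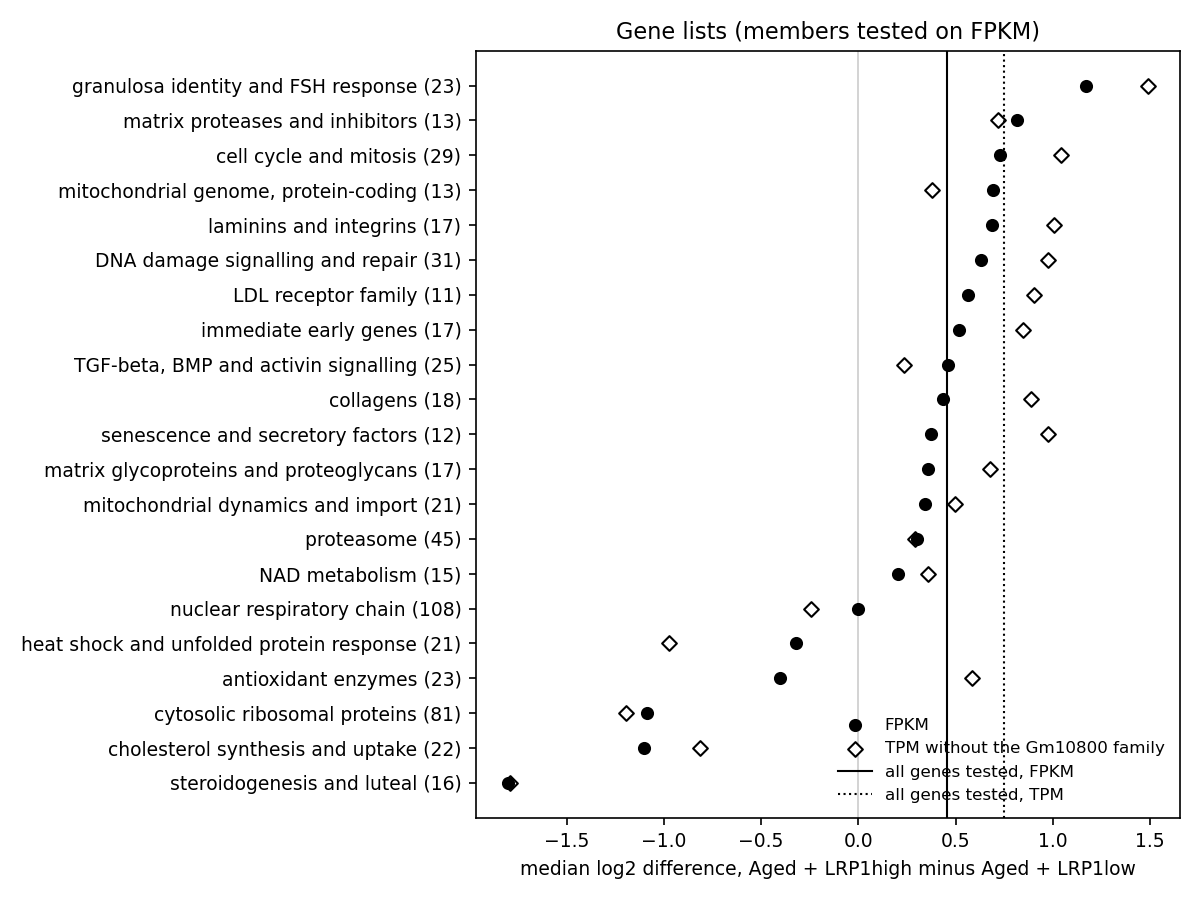
Median log2 difference (Aged + LRP1high minus Aged + LRP1low) of 21 gene lists with at least 10 tested genes, on FPKM (filled circles) and on TPM without the Gm10800 family (open diamonds), with the medians of all genes tested as vertical lines at 0.45 and 0.75; the median of abundant protein-coding genes on FPKM, -1.21, is not drawn. On FPKM, steroidogenic, cholesterol and ribosomal protein genes lie furthest to the left and granulosa identity genes furthest to the right, the first 3 only while Aged + LRP1low replicate 1 is included, and no member of any list was called.

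Markers of other ovarian cells were also measured. The summed FPKM was 11.3, 1.97 and 4.61 against 0 and 1.73 for 7 theca genes, 127, 3.54 and 73.3 against 64.8 and 12.7 for 7 stromal genes, and 17.3, 5.18 and 4.38 against 5.06 and 3.88 for 11 immune genes. Endothelial genes reached at most 31.3, smooth muscle genes 30.4, surface epithelium 21.8 and red blood cell genes 7.18. The theca sums did not overlap, with an exact two-sided permutation p of 0.2, and all 7 theca genes were listed at 0 in Aged + LRP1low replicate 1. The exact two-sided permutation test cannot go below p = 0.2 here, so it cannot decide whether any of the 11 marker lists differed. Their sums overlapped on both scales, except for theca on FPKM and cumulus expansion on TPM without the family. In these bulk libraries, fewer cells of a type and less RNA per cell cannot be told apart.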

How the data were processed

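RNA of granulosa cells was sequenced in 9 libraries, and groups were taken from the titles. Per the submitters' processing notes, reads were aligned with HISAT2 2.2.1 and quantified with StringTie 1.3.3b. The deposited FPKM, TPM and coverage values of each gene were used as the authors gave them. The labels name the build mm9, but 54580 of 55335 gene identifiers matched GENCODE vM21 (GRCm38) in version and position, so coordinates are given on GRCm38. The labels name a stranded kit and the study's methods Smart-seq2, which was not resolved, and the use of strand in counting is not given in the sources used here.

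FPKM was summed over rows that repeat a gene identifier (11 to 19 a library). Differences were fitted with limma 3.58.1 in R 4.3.3 on log2(FPKM + 1), over genes whose mean FPKM over the 9 libraries was at least 1. The 5 granulosa cell groups were in 1 model (4 residual degrees of freedom), which was tested on simulated data. P-values measure the spread between libraries, whose number of animals is unknown. Depth was computed from coverage and FPKM over 21693 single-exon genes, and the depth of a single gene is not known. Summed list levels were compared by exact two-sided permutation tests. TPM was also rescaled without the 10 genes of the Gm10800 family. Genes named were those called, the 10 protein-coding genes in each direction whose FPKM averaged 10 or more, with the smallest p-value whose groups did not overlap, called list members and 21 fixed genes. Others were named after their values were seen, and some items are not reported here. The gene lists, the comparison and the family were chosen with earlier results of these data known. Alternatives covered normalization, pseudocount, filter, unit, variance model, a replicate block and libraries left out.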

Additional observations from a re-analysis of the deposited data

How the results depend on the processing

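On FPKM no gene was called under any alternative except 489 without Aged + LRP1low replicate 2, so the count without single libraries ranged from 0 to 489, and 669 genes passed without adjustment. On TPM without the Gm10800 family, 10 genes (6 higher, 4 lower) were called with a trended robust variance and 0 with every other alternative, and 2719 passed without adjustment. The cause was not tested. The median difference of all genes was 1.02 with a pseudocount of 0.1 and -0.15 at a mean of at least 10 over the 9 granulosa cell libraries. A replicate block on the 2 shared numbers called 0 genes, and without adjustment 254 were higher and 142 lower; correlations of same-numbered libraries were -0.08 and 0.26, and the numbers were not taken to pair libraries. Without both libraries numbered 2, an alternative chosen after seeing the data, 0 genes were called and the smallest adjusted limma p-value was 0.0598. Removing Gm10720 and Gm10715 as well, also chosen after seeing the data, left 0 calls. Of 566 values of 36 named genes under 16 alternatives, 542 kept their sign and side of the threshold, 6 newly passed it and 18, in 10 genes, changed sign. Without Aged + LRP1low replicate 1 these were Hsd3b1 (0.93), Lhcgr (1.22), Mff (0.50), Mfn1 (0.52), Star (0.48), Timm17a (0.34), Tomm20 (0.77) and Slc25a51 (-0.04). Over the fits without single libraries, the other ends of the ranges were -6.25 for Hsd3b1, -4.76 for Lhcgr, -1.92 for Mff, -1.87 for Mfn1, -5.00 for Star, -2.20 for Timm17a and -3.04 for Tomm20 (without Aged + LRP1low replicate 2), 0.65 for Slc25a51 (without Aged + LRP1high replicate 2), and 3.05 for Inha and 1.19 for Lrp1 (without Aged + LRP1low replicate 1). Inha was -1.82 with the block and without Aged + LRP1high replicate 3, -1.71 without Aged + LRP1low replicate 2 and -0.42 without both libraries numbered 2. Lrp1 was -0.46 and -0.16 in the last 2 settings. Slc25a51 was -0.73 after quantile normalization, -0.27 with median-of-ratios size factors, -0.38 without Aged + LRP1high replicate 1 and -0.25 on TPM without the family. Of 502 medians of 32 lists, 120 moved by more than the spread between libraries. Aged + LRP1low replicate 1 was the shallowest library, which limits what could be seen of genes below an FPKM of 0.448, the worth of 1 read on a gene of 1 kilobase.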

Other observations

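Further lists held 0 called genes. The 9 tested genes of the BCL2 family, which sets the threshold of apoptosis, all had a difference above 0, with a median of 0.91 against 0.45 for all genes. Of the 18 genes of that list, 12 were listed at 0 in Aged + LRP1low replicate 1, the shallowest library. Proteasome genes had a median of 0.30 over 45 tested genes, 25 above 0 and 20 below. Genes of TGF-beta, BMP and activin signalling had a median of 0.46 over 25, immediate early genes 0.52 over 17, and senescence and secretory factors 0.37 over 12. Mouse orthologs of factors that the study tied to LRP1high cells had a median of 0.66 over 8.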
